A study of Mus musculus with 5 samples.

Results

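The genes described here are 37 genes that cells switch on in response to type I interferon, the antiviral cytokine family that includes interferon beta and the interferon alphas. They were chosen by name from the 27998 genes of the table, and all 37 were found, with 644809 unique molecular identifiers (UMIs, each standing for 1 captured transcript) in the cells that were kept. The sources describe 9 samples from 3 mice, each giving tumour, draining lymph node and non-draining lymph node, from which live CD45+ cells (immune cells) were sorted, tagged with hashtag antibodies and sequenced as 1 pool with a 5′ single-cell kit. Mouse 1 received nivolumab_mIgG1_D265A, mouse 2 nivolumab_mIgG1 and mouse 3 the isotype control MOPC21, where nivolumab is an antibody to human PD-1, an inhibitory receptor of T cells. Strain, genotype, age and tumour model are not given in the sources used here, and neither is the hashtag that each mouse and site carried. The hashtags therefore give 9 unassigned populations, numbered here 1 to 9 by tag, and no antibody or site was compared. Each population is 1 sample, so the values have no replicates, and their 95% intervals (exact Poisson for levels, conditional binomial for ratios, exact binomial for shares) cover counting error only.

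Type I interferons bind a receptor made of Ifnar1 and Ifnar2, whose kinases Jak1 and Tyk2 activate transcription factors, Stat2 among them. With Irf9, Stat2 is part of a complex that binds the interferon-stimulated response element, a short repeat of GAAA, in front of its target genes. The products block viral entry, translation and replication, tag proteins with the ubiquitin-like Isg15, and include sensors of foreign nucleic acid and the factors Stat2, Irf9 and Irf7 themselves, which feed the response. In tumours the response is known from dendritic cells, macrophages and T cells. Several members, among them Irgm1, Ifi47, Irf9 and Stat2, also respond to interferon gamma, the cytokine of T and NK cells.

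The core of the response element was looked for in RefSeq promoters of build GRCm38.p6, the 250 bases before to the 50 bases after each start. A promoter was held for 28 of the 37 members. The letters GAAA, any 2 bases and GAAA again, read on both strands, were in the promoters of 15 of the 28 (53.6%), against 1079 of all 27025 genes with a promoter (3.99%). The letters TTC, any 3 bases and GAA, the core of the element for interferon gamma, which can overlap the former, were in 4 members (14.3%) against 9.55% of all genes. In Isg15, Ifit1, Ifit3, Bst2 and Irgm1 a single promoter held more than 1 match. The sequences of 4 of these are shown because they carry the repeat in several copies and their genes recur in the comparisons that follow. Each runs 5′ to 3′ on the gene's strand over the 180 bases before the start, with the matches in capitals, from chr4:156200819-156200998 (minus strand) for Isg15, chr19:34640709-34640888 (plus) for Ifit1, chr19:34583349-34583528 (plus) for Ifit3 and chr8:71537473-71537652 (minus) for Bst2.
Isg15: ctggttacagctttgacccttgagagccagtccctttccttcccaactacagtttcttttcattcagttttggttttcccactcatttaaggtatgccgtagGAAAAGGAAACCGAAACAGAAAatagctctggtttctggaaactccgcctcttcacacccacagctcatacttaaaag
Ifit1: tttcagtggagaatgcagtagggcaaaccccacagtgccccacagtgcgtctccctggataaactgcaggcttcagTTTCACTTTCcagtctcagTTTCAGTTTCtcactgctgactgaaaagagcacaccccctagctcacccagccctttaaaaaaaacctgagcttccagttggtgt
Ifit3: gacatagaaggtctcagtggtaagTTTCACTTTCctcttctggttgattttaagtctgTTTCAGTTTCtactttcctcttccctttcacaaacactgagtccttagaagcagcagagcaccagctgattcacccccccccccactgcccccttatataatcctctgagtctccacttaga
Bst2: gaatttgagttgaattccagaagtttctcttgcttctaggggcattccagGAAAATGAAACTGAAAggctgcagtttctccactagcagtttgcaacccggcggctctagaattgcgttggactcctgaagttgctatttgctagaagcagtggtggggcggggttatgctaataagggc
In Isg15 the 3 matches overlapped in 1 run, starting between positions -78 and -66 from the start. The matches began at -104 and -85 in Ifit1, at -156 and -122 in Ifit3 and at -130 and -124 in Bst2. The capitals of Ifit1 and Ifit3 read TTTC because the element is read there on the other strand. A single match per promoter was found for Rsad2, Oas3, Phf11b, Slfn5, Slfn8, Stat2, Trim30a, Ddx58, Eif2ak2 and Ifih1. These letters were not in the windows of Cmpk2, Dtx3l, Herc6, Ifi44, Ifi47, Ifit2, Irf7, Irf9, Isg20, Oasl1, Oasl2, Slfn1 and Xaf1. Promoters of Usp18, Zbp1, Ifi204, Oas2, Mx1, Ifi27l2a, Rtp4, Parp9 and Parp14 were not analysed here. The members lie on 15 chromosomes, and Ifit1, Ifit2 and Ifit3 stand within 99315 bases of chromosome 19.

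After the stated filters 21531 cells with 128285378 UMIs were left, and 21273 of them carried a clear hashtag. The populations held 2056 to 2581 cells, with 9202501 to 31330079 UMIs in all and a median of 3377 to 10660 UMIs per cell. Cell classes were gated on marker genes that are not members, and 14653 cells (68.9%) fell in exactly 1 gate. The class names stand for these gates only. Levels are CPM, a gene's UMIs over 1e+06 UMIs of its class, summed over cells, without scaling by gene length. Apoe and Lyz2, macrophage and monocyte genes, stood at 29.5 to 53.4 and 29.5 to 52.7 CPM in the T and NK classes and at 225 and 65.0 CPM in B cells, against 4678 and 4828 CPM in macrophages. Their part in the lymphocyte levels of the members was not tested. The B, T and NK gates themselves allowed few Lyz2 UMIs per cell, so its low level there was partly set by the gating. Macrophages, monocytes, activated CD8 T cells and NK cells came almost all from populations 1, 4 and 7, and B cells and naive T cells from populations 2, 3, 5, 6, 8 and 9. A class is described by population where a population gave at least 20 of its cells.

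Summed over populations, the members together were highest in monocytes and lowest in B cells among the 9 largest classes. Monocytes (309 cells) held 13504 CPM, activated CD8 T cells (1162 cells) 7520 CPM and macrophages (2993 cells) 7100 CPM. Regulatory T cells (Treg, 302 cells) held 5355 CPM, activated CD4 T cells 3779 CPM, NK cells 2932 CPM, naive CD4 T cells 2544 CPM, naive CD8 T cells 2280 CPM and B cells (5839 cells) 1701 CPM. The classes drew on different populations, so class and population are mixed in this order. In population 1 Treg held 13844 CPM, above the 10459 CPM of 24 monocytes. In population 4 Treg held 13152 CPM and monocytes 15951 CPM. The pooled order also rests in part on 1 gene. Ifi27l2a, a small membrane protein gene, gave 22.8% of all member UMIs and stood at 2335 CPM in monocytes, 2738 CPM in Treg and 73.1 CPM in NK cells. Without it (a choice made after its level was seen) monocytes held 11169 CPM, macrophages 5819 CPM and activated CD8 T cells 4970 CPM. NK cells then held 2859 CPM, Treg 2618 CPM and B cells 1087 CPM. On these pooled sums macrophages stood above activated CD8 T cells and NK cells above Treg. These orders did not hold in every population. In populations 1 and 4 Treg held 7051 and 7033 CPM without Ifi27l2a, against 3384 and 2862 CPM in NK cells. Macrophages stood below activated CD8 T cells in population 1 (6558 against 6912 CPM). They stood above them in populations 4 (7117 against 4279 CPM) and 7 (4902 against 2252 CPM). Over all 37 members neutrophils held 18776 CPM and plasmacytoid dendritic cells 6946 CPM, but from 11 and 10 cells. Migratory dendritic cells held 4656 CPM from 85 cells, but this pooled level mixes unlike populations. They held 12610.5 CPM in population 1, 12204 CPM in population 4 and 4945 CPM in population 7. In the other populations they held 1180 to 1701 CPM. No population gave 20 of these cells.

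**Figure D1:**
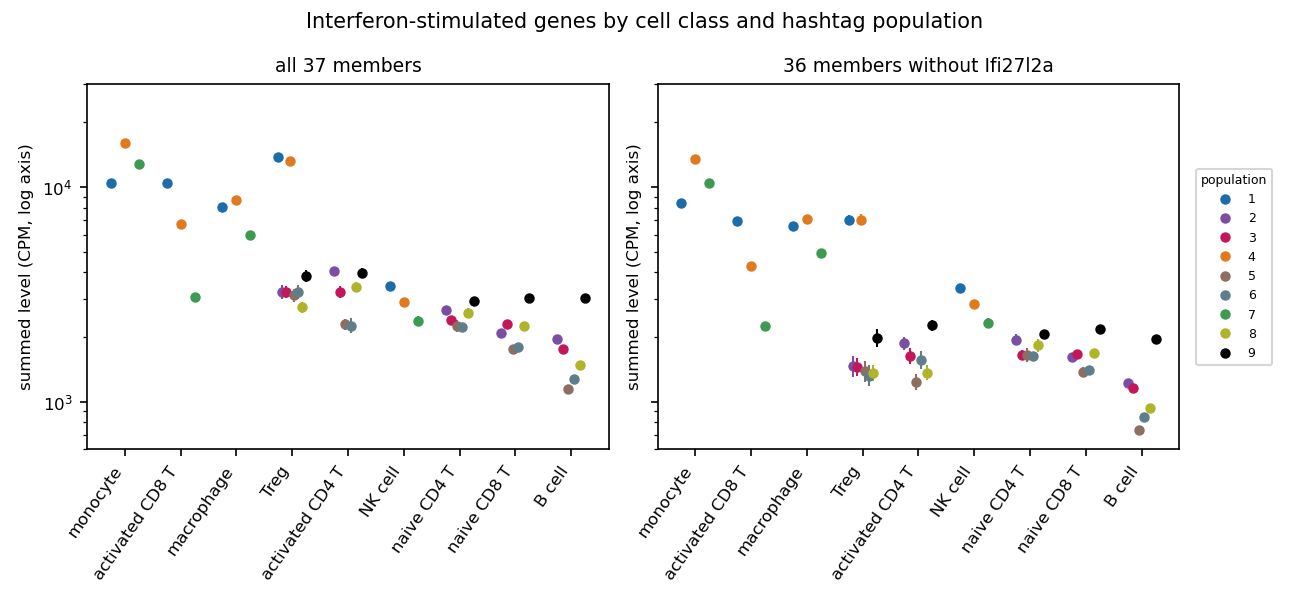
Summed level of the members (CPM, log axis) by cell class and hashtag population, for all 37 genes and for the 36 without Ifi27l2a. Points are single populations with at least 20 cells and bars their 95% counting intervals. Activated CD8 T cells ran from 3059 CPM in population 7 to 10394 CPM in population 1, and Treg of populations 1 and 4 stood above those of every other population plotted.

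By gene, summed over populations, 31 of the 37 members were highest in monocytes. The other 6 were Irf9, Isg20 and Phf11b in activated CD8 T cells, Ifi44 in NK cells, Ifi27l2a in Treg and Bst2 in macrophages. The lowest class was B cells for 20 members, naive CD4 T cells for 6, and macrophages and naive CD8 T cells for 3 each. The ubiquitin-like Isg15 was at 1475 CPM in monocytes, 601 CPM in macrophages, 520 CPM in activated CD8 T cells and 28.9 CPM in B cells. Irf7, the factor that raises interferon alpha transcription, ran from 88.9 CPM in B cells to 1050 CPM in monocytes. Irf9, the DNA-binding part of the complex with Stat2, varied far less, between 53.7 CPM in macrophages and 83.7 CPM in activated CD8 T cells. Bst2 (tetherin), which holds budding virus at the cell surface, was the only member highest in macrophages, at 973 CPM against 714 CPM in monocytes and 92.3 CPM in B cells.

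**Figure D2:**
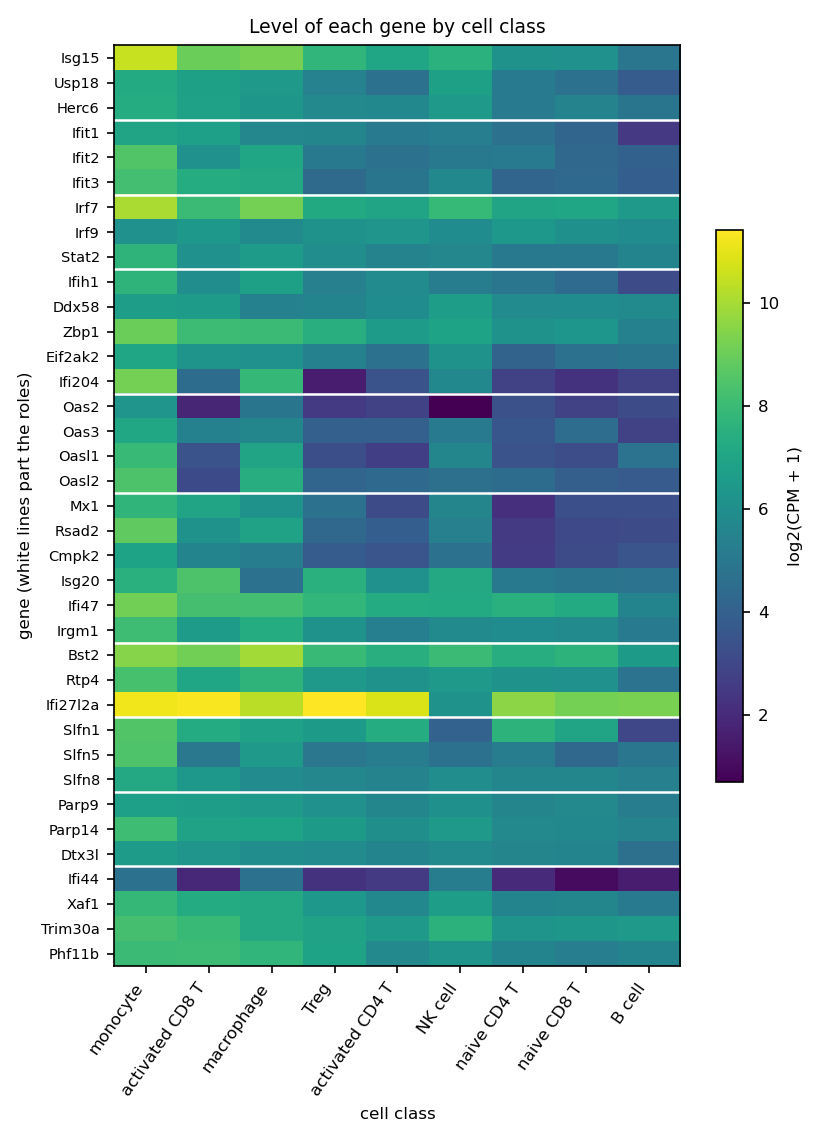
Level of each member (log2 of CPM + 1, colour) in the 9 classes, ordered from left to right by summed level. White lines part the genes by role. The monocyte column is brightest for 31 of 37 genes, and Ifi27l2a is bright in every class but NK cells.

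The leading members overlapped between naive T cells and B cells. The 5 members of highest CPM were Ifi27l2a, Slfn1, Ifi47, Bst2 and Irf7 in naive CD4 T cells and Ifi27l2a, Bst2, Ifi47, Irf7 and Slfn1 in naive CD8 T cells. Slfn1, a Schlafen gene known from T cells, was highest in monocytes, at 360 CPM. It was at 195 CPM in naive CD4 T cells, 124 CPM in naive CD8 T cells, 15.6 CPM in NK cells and 6.98 CPM in B cells. In B cells the highest members were Ifi27l2a, Bst2 and Irf7, all of them also among the leading members of both naive T cell classes, then Trim30a and Irf9, and in NK cells Bst2, Irf7, Trim30a, Isg15 and Ifi47. Genes with a close copy nearby, among them Ifit3 (Ifit3b), Phf11b (Phf11a), Trim30a, Ifi27l2a, Ifi204 and the Slfn genes, are uncertain where reads could fit either copy.

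Activated CD8 T cells, gated on exhaustion and effector genes, held 3.30 times the summed member level of naive CD8 T cells (3.25 to 3.35). A member was read where the pair of classes held at least 50 UMIs, and called where its ratio was at least 2-fold with an interval that left out 1. Of 36 members read, 21 were higher, against 15.4% of all genes read, and 1 was lower, against 9.14% of all genes. The median log2 ratio was 1.45 over the members and 0.13 over all genes. The classes shared no population with 20 cells of each, so activation and population cannot be told apart in the pooled ratio. Populations 2, 3, 5, 6, 8 and 9 gave 9 to 19 activated CD8 T cells each, at 1443 to 4149 CPM in sum. Naive CD8 T cells there held 1751 to 3055 CPM. Without Ifi27l2a the ranges were 893 to 2878 CPM and 1379 to 2174 CPM. Populations 1, 4 and 7 gave 9, 6 and 2 naive CD8 T cells, at 5086, 3964 and 2020 CPM. Activated CD8 T cells there held 10394, 6735 and 3059 CPM.

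The largest ratios were in antiviral effectors. Mx1, a GTPase that traps viral nucleocapsids, stood at 124 CPM against 8.96 CPM, a ratio of 13.8 (11.1 to 17.4). Isg20, an RNA exonuclease, had a ratio of 12.7 (11.2 to 14.5), and Rsad2 (viperin), which makes a chain-terminating nucleotide, 9.37 (7.35 to 12.1). The RNA-binding Ifit3 reached 8.20 (7.06 to 9.58), Isg15 7.58 (6.99 to 8.23) and Phf11b 6.90 (6.18 to 7.72). Smaller ratios were found for Ifi27l2a (4.38), for Usp18, the protease that removes Isg15 from proteins and damps receptor signalling (4.24), for Bst2 (2.87) and for Stat2 (2.12). Irf7 at 1.96, Irgm1 at 1.68 and Slfn1 at 1.26 stayed under 2-fold, although Irf7 passed it without population 7, 8 or 9 (2.04 to 2.25). Ifi47, Rtp4, Slfn8 and Parp9, at 1.78 to 1.97, likewise passed it without 1 or another of populations 2, 4, 5, 7, 8 and 9 (2.00 to 2.25). The OAS family, which makes the activator of RNase L or its relatives, was mixed. Oas3 had a ratio of 1.87 (1.58 to 2.22), which was 0.918 without population 1 and 2.13 to 2.49 without population 4, 7 or 9. Oasl1 had a ratio of 1.18 (0.865 to 1.62), Oasl2 0.532 (0.393 to 0.713) and Oas2 0.445 (0.261 to 0.733), the 1 member called lower. Oasl2 was at 0.498 without population 3. The high ratios were smaller without population 1. Mx1 was then at 6.91, Isg20 at 8.45, Rsad2 at 4.15, Ifit3 at 3.90, Isg15 at 3.90, Phf11b at 4.29 and Usp18 at 2.23, and Bst2 (1.79), Stat2 (1.58), Herc6 (1.74) and Parp14 (1.82) fell under 2-fold. The call of Oas2 was lost without population 4, 7 or 9 (0.507 to 0.586), and it was at 0.268 without population 1.

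Of the pathway genes outside the members, 11 of 20 further interferon-stimulated genes were higher and none lower, among them Ly6a (16.9 times), Ifitm3 (10.4), Ifit3b (8.96) and Cxcl10 (4.35). Of 8 genes that respond mainly to interferon gamma, 2 were higher, Gbp3 (3.56) and Gbp5 (2.27). The receptors and kinases gave 1 higher (Ifngr1, 2.32) and 1 lower (Ifngr2, 0.0410) of 7. The stress list gave 3 higher of 7, the heat shock genes Hspa1a (17.4) and Hspa1b (24.9) and the early gene Egr1 (2.80), and their part in the member ratios was not tested.

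Within activated CD8 T cells the members differed widely between populations 1, 4 and 7, which gave 598, 335 and 150 such cells. The summed level was 10394 CPM in population 1, 6735 CPM in population 4 and 3059 CPM in population 7, or 6912, 4279 and 2252 CPM without Ifi27l2a. A gene's range over populations was read where the shallowest population would expect at least 10 UMIs. Of 35 members read, 29 had a range of at least 2-fold, against 11.1% of all genes read. The median range was 3.00-fold over the members and 1.34-fold over all genes. Population 1 was highest for 34 of the 35 and population 7 lowest for all 35. Without population 7 the count fell to 10, and without population 1 to 16.

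Isg15 stood at 797, 373 and 180 CPM in populations 1, 4 and 7, and Ifit3 at 256, 109 and 49.8 CPM. Usp18 ran at 165, 83.5 and 29.7 CPM, Irf7 at 352, 252 and 85.1 CPM, and Ifi27l2a at 3482, 2456 and 807 CPM. Each of these fell in the same order, with counting intervals that did not overlap. Bst2 followed at 794, 486 and 209 CPM and Mx1 at 191, 86.4 and 49.1 CPM. The widest range was 6.64-fold for Slfn5 and the narrowest 1.37-fold for Oasl2, while Irf9 (1.53-fold), Parp14 (1.63-fold), Eif2ak2 (1.91-fold) and Parp9 (1.93-fold) also stayed under 2-fold. The genes that respond mainly to interferon gamma moved with them, at 679, 528 and 333 CPM in sum. Receptors and kinases (1230, 1274 and 1160 CPM) and stress genes (2484, 2663 and 2409 CPM) did not keep that order. Ifng itself was at 634, 1060 and 715 CPM, highest in population 4. Apoe was at 34, 28.5 and 27 CPM in the same cells.

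Macrophages of the same populations varied less and in another order. Their summed level was 8086 CPM in population 1, 8659 CPM in population 4 and 5971 CPM in population 7. Of 37 members, 2 had a range of at least 2-fold, Oasl1 (2.39) and Mx1 (2.01), against 7.38% of all genes read. All 37 were lowest in population 7, while 23 were highest in population 4 and 14 in population 1. Oasl1, a relative of the OAS enzymes that holds back translation of Irf7, stood at 181, 183 and 76.7 CPM in populations 1, 4 and 7. Isg15 stood at 671, 765 and 492 CPM and Irf7 at 627, 715 and 482 CPM. Without population 7 no member reached 2-fold.

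**Figure D3:**
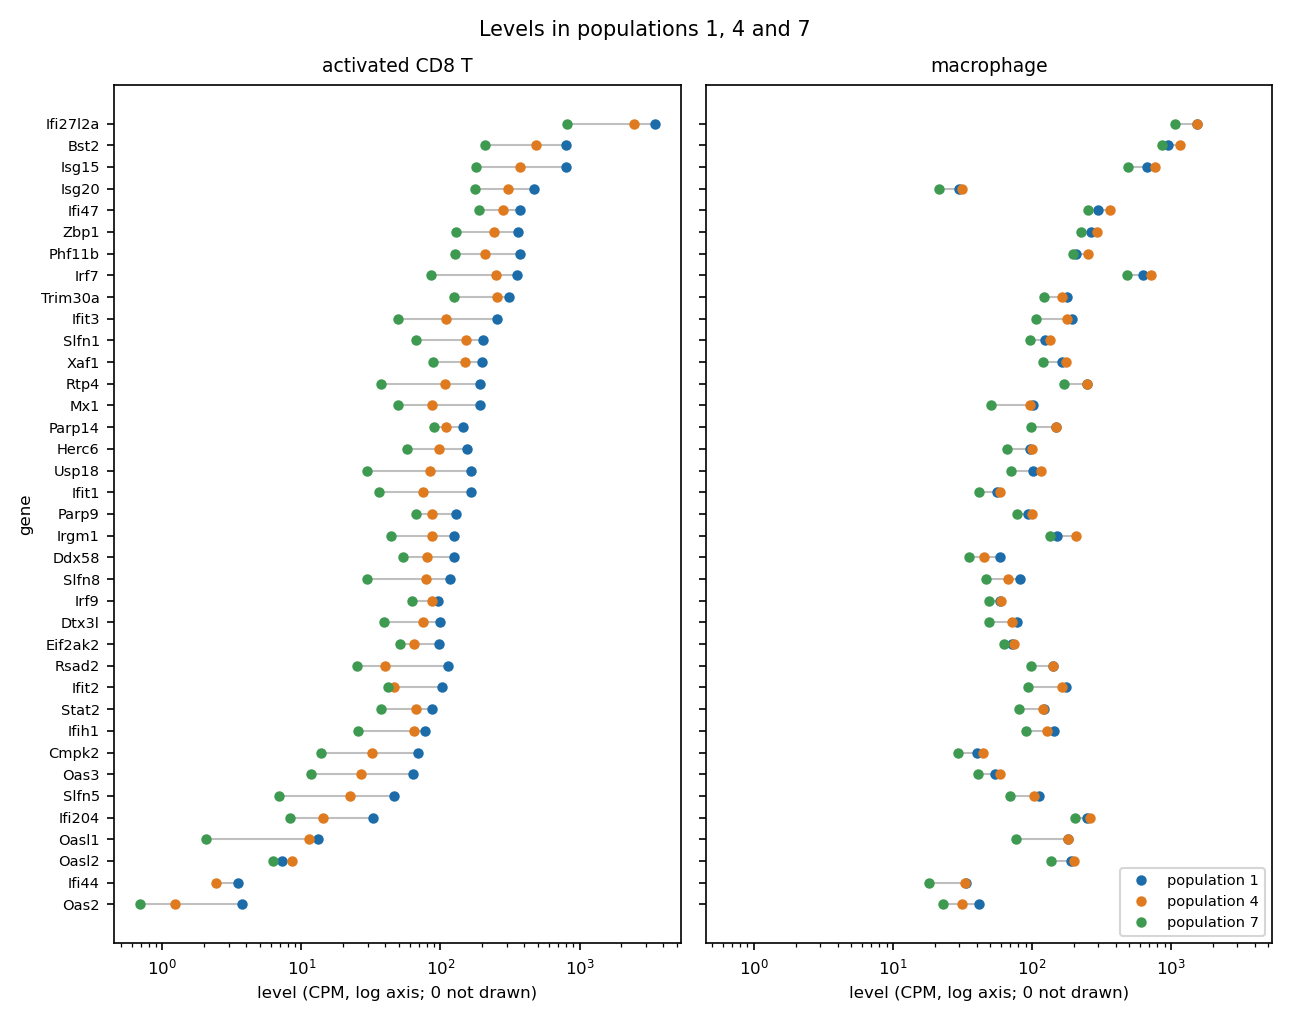
Level of each member (CPM, log axis) in activated CD8 T cells and macrophages of populations 1, 4 and 7. Points are single populations and grey lines join the lowest and highest. In activated CD8 T cells Isg15 spans 180 to 797 CPM, and in macrophages 492 to 765 CPM.

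Set against activated CD8 T cells over all populations, macrophages were higher in 7 of 37 members, against 19.2% of all genes, and lower in 3, against 17.7%. The pooled count hides the populations. Of 37 members read in each, 6 were higher in population 1, 14 in population 4 and 19 in population 7. The shares of all genes called higher there were 18.2%, 18.8% and 17.2%. Without population 1 the pooled count rose to 15, and with looser gates to 11. The genes highest in macrophages by ratio were Oasl2 (21.2, interval 16.7 to 27.3), Oasl1 (12.6), Oas2 (11.0), the DNA sensor family member Ifi204 (10.7), Ifi44 (8.88) and Slfn5 (2.80), followed by Irf7 (2.22). Isg20 had the lowest ratio, 0.0752 (0.0702 to 0.0804), followed by the RNA sensor Ddx58 (0.448) and Ifit1 (0.457). Without population 1 Ddx58 (0.609) and Ifit1 (0.898) were not called and Ifi204 came to 20.8, Oas2 to 17.3 and Slfn5 to 4.96, and without population 4 Irf7 was at 1.96. In all 3 populations the ratio of Oasl2 lay between 21.9 and 26.4 and that of Isg20 between 0.0632 and 0.122. Near equal were Isg15 (1.16), Ifit3 (0.872), Usp18 (0.824) and Slfn1 (0.723), whose ratios crossed 1 between populations, and Ifi27l2a stood at 0.502. Bst2 (1.73), Rsad2 (1.69), Irgm1 (1.69) and Stat2 (1.45) were above 1 without reaching 2-fold. Without population 1 Rsad2 came to 3.77, Bst2 to 2.81, Irgm1 to 2.42 and Isg15 to 2.21, all of them then called, and Ifit3 to 1.73 and Usp18 to 1.53. Ifit2, Rtp4, Oas3 and Ifih1 were also called without it (2.23 to 3.02), and Ifit2 without population 7 (2.23). Mx1 (0.446) was called lower without population 4, and Ifi27l2a without population 4, 5, 8 or 9 (0.451 to 0.4996). Genes that respond mainly to interferon gamma were higher in macrophages in 7 of 10, led by Gbp2b (155 times) and the chemokine Cxcl9 (113).

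Monocytes, gated on Chil3, Ccr2 and related genes with few complement transcripts, held 1.90 times the summed member level of macrophages (1.88 to 1.92). Of 37 members, 20 were at least 2-fold higher, against 6.17% of all genes, and 0 were lower, against 12.8%. The median log2 ratio was 1.03 over the members and -0.18 over all genes. Both classes came from populations 1, 4 and 7, in which 4, 19 and 25 members were called higher and none lower, with 24, 75 and 205 monocytes. Of all genes, 5.53%, 5.85% and 6.63% were called higher in these populations, and 4.27%, 9.44% and 13.4% lower. Of the 20, 18 had a ratio above 1 in all 3 populations. Ifit3 and Ifit2 did not, since in population 1 the ratio of Ifit3 was 0.954 and that of Ifit2 was 0.751.

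Isg20 was at 181 CPM against 25.9 CPM, a ratio of 6.98 (6.27 to 7.77), and 3.86 to 8.31 by population. Slfn5 followed at 4.11 (3.82 to 4.41), Rsad2 at 3.76 (3.53 to 4.01), and its neighbour Cmpk2, a mitochondrial nucleotide kinase, at 3.41 (3.02 to 3.84). Slfn1 was at 3.19, Oas3 at 2.88, Isg15 at 2.46, Ifit3 at 2.07 and Stat2 at 2.04. Without population 7 Ifit3 (1.65), Stat2 (1.76), Ifit1 (1.93), Ddx58 (1.94), Zbp1 (1.93) and Trim30a (1.99) were under 2-fold, and Zbp1 also without population 3 (1.99). Herc6 (2.07) and Oasl1 (2.18) were called without population 1 and Ifi47 (2.04) without population 7, where Ifi44 went from 0.988 to 0.614. Irf7 (1.83), Ifi27l2a (1.82), Irgm1 (1.71) and Usp18 (1.70) stayed under 2-fold. The lowest ratios were those of Phf11b (1.18), Ifi44 (0.988) and Bst2 (0.734, interval 0.701 to 0.768). Bst2 was below 1 in each of the 3 populations, at 0.637 to 0.787. Of the further interferon-stimulated genes 9 of 21 were higher, led by Ifi203 (3.62) and Ms4a4b (3.21), while the genes that respond mainly to interferon gamma split into 2 higher (Gbp5, 2.96, and Gbp2, 2.39) and 2 lower (Gbp2b, 0.0478, and Iigp1, 0.493) of 10.

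**Figure D4:**
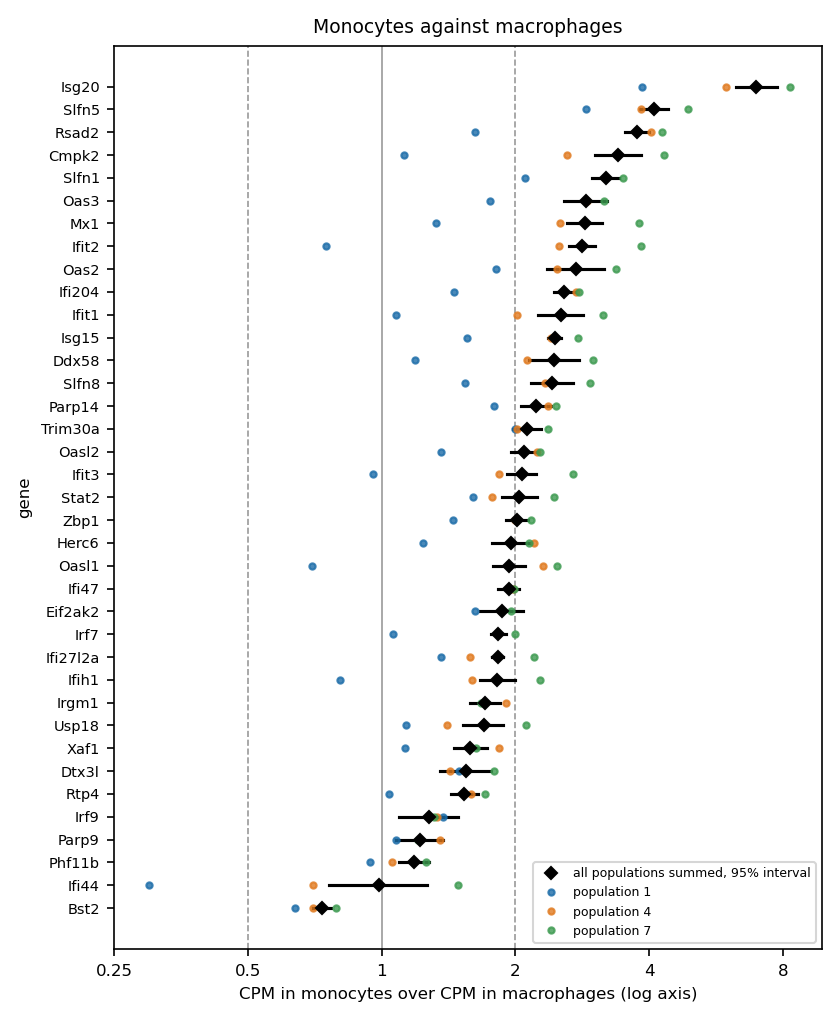
Ratio of CPM in monocytes to CPM in macrophages for each member (log axis). Diamonds and bars are all populations summed with 95% counting intervals, and circles are populations 1, 4 and 7. Isg20 lies at 6.98 and Bst2 at 0.734, with circles of all 3 populations below 1 for Bst2.

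By population, monocytes held 10459 CPM in population 1, 15951 CPM in population 4 and 12833 CPM in population 7. Of 36 members read, 5 had a 2-fold range, against 10.6% of all genes read, namely Oasl1 (3.35), Ifit2 (3.14), Cmpk2 (2.81), Rsad2 (2.48) and Ifit1 (2.16). Population 4 was highest for 29 of the 36. The 24 monocytes of population 1 were the lowest for 29, and without them 1 member reached 2-fold. With stricter or looser gates none did.

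NK cells held 0.390 times the summed member level of activated CD8 T cells, or 0.575 times without Ifi27l2a. In populations 1, 4 and 7 the summed ratio was 0.334, 0.434 and 0.777, and without Ifi27l2a it was 0.490, 0.669 and 1.03, so that in population 7 NK cells were not below activated CD8 T cells on that sum. Of 36 members, 4 were higher, against 6.91% of all genes, and 11 lower, against 8.18%. The 4 were Ifi44 at 12.7 times (8.17 to 20.4), Oasl1 (4.87), Oasl2 (3.14) and Ifi204 (2.39), and each lay above 1 in populations 1, 4 and 7. The lowest ratios were those of Ifi27l2a (0.0286, interval 0.0251 to 0.0326), Slfn1 (0.100) and Phf11b (0.286), followed by Ifit3 (0.314), Isg15 (0.360) and Bst2 (0.452). Ddx58 (1.10), Usp18 (0.999), Irf7 (0.914), Stat2 (0.727), Irgm1 (0.592) and Rsad2 (0.582) were not called. The number called lower was 15 of 34 members read in population 1, 9 of 36 in population 4 and 3 of 29 in population 7. The shares of all genes called lower there were 8.06%, 6.69% and 7.88%. The pooled count fell from 11 to 3 without population 1, and to 5 with looser gates. Without population 1 Isg15 stood at 0.655, Ifit3 at 0.577, Bst2 at 0.692 and Phf11b at 0.447, while Oasl1 came to 7.37 and Ifi204 to 4.23. Rsad2 came to 1.37 and Usp18 to 1.79 without population 1, while without population 4 Rsad2 (0.411) was called lower and Ifi44 came to 8.37. Cmpk2 (0.551) was called lower without population 4 (0.468) or 7 (0.496) but stood at 1.11 without population 1, and Ifi47 (0.508) was called lower without population 7 or 8 (0.491 to 0.492). NK cells themselves held 3467, 2923 and 2377 CPM in these populations, with a 2-fold range in 6 of 35 members against 7.75% of all genes, or in 16 members with looser gates. Ifi44, a GTP-binding protein of unclear function, had the widest, with 37 CPM, 43.9 CPM and 9.92 CPM.

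Treg, gated on Foxp3, held 2.11 times the summed member level of naive CD4 T cells (2.05 to 2.16), and 1.45 times without Ifi27l2a. In the 6 populations with at least 20 cells of both classes the summed ratio was 1.06 to 1.45, and without Ifi27l2a it was 0.742 to 0.961, below 1 in all 6, the other direction from the pooled ratio. Of 33 members read, 8 were higher, against 15.1% of all genes, and 1 lower, against 4.84%. The leading ratios were those of Mx1 (6.88), Isg20 (5.82), Rsad2 (3.87), Ifi27l2a (3.69), Isg15 (2.97) and Phf11b (2.63), with Eif2ak2 and Zbp1 the other two. Without population 1 Phf11b (1.97), Eif2ak2 (2.00) and Zbp1 (1.88) were not called. Slfn1 was lower at 0.475, but at 0.521 without population 5 and 0.539 without population 8. Stat2 (1.90), Bst2 (1.54), Usp18 (1.31), Irgm1 (1.22), Irf7 (1.19), Ifit3 (1.19), Slfn5 (0.802) and Ddx58 (0.783) were not called. Stat2 was called without population 2, 6 or 8 (2.00 to 2.12), Ifit1 without 2, 5, 8 or 9 (2.07 to 2.44) and Xaf1 without 8 or 9 (2.03 to 2.06), and Ifit3 was at 0.711 without population 4.

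The Treg level depended on the population. It was 13844 CPM in population 1 (45 cells) and 13152 CPM in population 4 (33 cells), and 2758 to 3848 CPM in populations 2, 3, 5, 6, 8 and 9. The 15 Treg of population 7 lay between, at 8566 CPM. The rise was not particular to Treg. Activated CD4 T cells held 12174.5 and 11226 CPM in populations 1 and 4 (17 and 19 cells). They held 5512 CPM in population 7 (13 cells) and 2262 to 4042 CPM in the other 6. In Treg, Isg15 stood at 756 and 576 CPM in populations 1 and 4 and at 63.4 to 161 CPM in the other 6. Irf7 was at 437 and 517 CPM against 51.3 to 99.8 CPM, and Bst2 at 686 and 722 CPM against 91.1 to 178 CPM. All 16 members read had a 2-fold range, but so had 63.4% of all genes read. Their median range was 7.71-fold against 2.27-fold over all genes, and 8 were highest in population 1 and 8 in population 4. Genes that respond mainly to interferon gamma ran from 349 CPM in population 3 to 1894 CPM in population 4. Populations 1 and 4 held 3 naive CD4 T cells each, so that class could not be compared there. Within the other 6 populations, with 6 to 20 members read, 0 to 3 were called higher, against 9.51% to 20.1% of all genes. In the same populations 1 to 3 were called lower, against 4.28% to 6.32% of all genes. There Ifi27l2a ranged from 1.83 to 3.17 times and Isg15 from 0.995 to 1.87 times, and Irf7 lay below 1 in each (0.450 to 0.620). Without population 1 the pooled count fell from 8 to 3, and by the median ratio over the 6 populations 4 members were higher and 4 lower.

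Naive CD8 and naive CD4 T cells, which came from the same 6 populations, differed little. The summed ratio was 0.896, and 0.778 to 1.03 by population, and 1 of 36 members was called higher in naive CD8 T cells, against 2.65% of all genes, and 0 lower, against 1.59%. That member was Mx1 (2.50, interval 1.43 to 4.65), from 8.96 and 3.59 CPM, and without population 9 it stood at 1.86. Oas3 (1.99), Cmpk2 (1.64), Rsad2 (1.55), Eif2ak2 (1.51), Herc6 (1.31), Bst2 (1.19), Ifit3 (1.15), Irf7 (1.07) and Stat2 (1.01) lay on the same side of 1. On the other side lay Irgm1 (0.957), Isg15 (0.937), Usp18 (0.791), Ifi27l2a (0.785), Slfn1 (0.633), Oas2 (0.622), Ifit2 (0.556) and Slfn5 (0.502). Rsad2 passed 2-fold without population 9 (2.15), Cmpk2 without 8 (2.24) and Oas3 without 2, 5 or 6 (2.07 to 2.20), and Oas2 (0.448) and Slfn5 (0.428) were called lower without population 9, Slfn5 also without 2 or 6 (0.495 to 0.499). Slfn1 was below 1 in all 6 populations, at 0.495 to 0.723, and Bst2 above 1 in all 6, at 1.05 to 1.42.

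B cells held 0.668 times the summed member level of naive CD4 T cells (0.654 to 0.683). By population the summed ratio was 0.508 to 0.738 in 5 of them and 1.03 (0.984 to 1.07) in population 9. In population 9, of 35 members read, 6 were higher, against 13.6% of all genes, and 4 lower, against 6.17%. Over all populations, of 37 members, 3 were higher, against 16.1% of all genes, and 8 lower, against 8.01%. The lower ones were Slfn1 (0.0358, interval 0.0297 to 0.0428), Ifit1 (0.185), Ifi47 (0.249), the RNA sensor Ifih1 (0.273), Rtp4 (0.365), Isg15 (0.394), Usp18 (0.412) and Ifit2 (0.474). Those higher were Oasl1 (2.69), Mx1 (2.48) and Cmpk2 (2.09). Oasl1 lay above 1 in all 6 populations, whereas Mx1 (1.80) and Cmpk2 (1.66) were under 2-fold without population 9, as was Cmpk2 without population 3 (1.76) or 6 (1.92). Ifit2 was at 0.554 without population 5 and 0.521 without population 8. Without population 9 Rsad2 was called higher (2.19) and Oas3 (0.376) and Oasl2 (0.447) lower, Oas3 also without population 2 (0.489). Eif2ak2 (1.72), the kinase that halts translation on double-stranded RNA, Rsad2 (1.69) and Stat2 (1.41) were above 1 without a call, and Ifi27l2a (0.828), Ifit3 (0.821), Irf7 (0.723), Irgm1 (0.571) and Bst2 (0.565) below.

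The B cell level also moved with the population. In populations 2, 3, 5, 6, 8 and 9 it was 1962, 1755, 1144, 1275, 1483 and 3041 CPM. Population 9 stood apart at the top, and the range was 2.66-fold. Of 33 members read, 26 had a range of at least 2-fold, against 8.24% of all genes read, with a median of 2.89-fold against 1.36-fold. Population 9 was highest for 32 of the 33 and population 5 lowest for 28. Without population 9 the count was 10.

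Irf7 stood at 96.3, 85.4, 43.0, 50.5, 71.2 and 223 CPM in populations 2, 3, 5, 6, 8 and 9. Ifit3 stood at 18.3, 14.7, 4.44, 4.74, 7.91 and 44.2 CPM, and Isg15 at 32.4, 28.9, 15.4, 19.8, 26.4 and 59.6 CPM. For each of these the interval in population 9 lay above those of the other 5. The widest range was that of Oas2 (10.9-fold, from 2.12 to 23.1 CPM), and the narrowest that of Dtx3l (1.30-fold). The PARP and DTX3L group, partners in ADP-ribosylation, had 0 of 3 members at 2-fold, while the OAS, IFIT, Schlafen, Isg15 and membrane groups had every member read at 2-fold or more. Further interferon-stimulated genes outside the members ran from 3736 CPM in population 5 to 5294 CPM in population 9. Sensing pathway genes ran from 185 to 233 CPM between the same populations. Genes that respond mainly to interferon gamma stayed between 316 and 352 CPM, receptors and kinases between 682 and 769 CPM, and stress genes between 3169 and 4063 CPM, the last highest in population 3. Apoe in B cells ran from 199 to 241 CPM, and stood at 222 CPM in population 9.

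**Figure D5:**
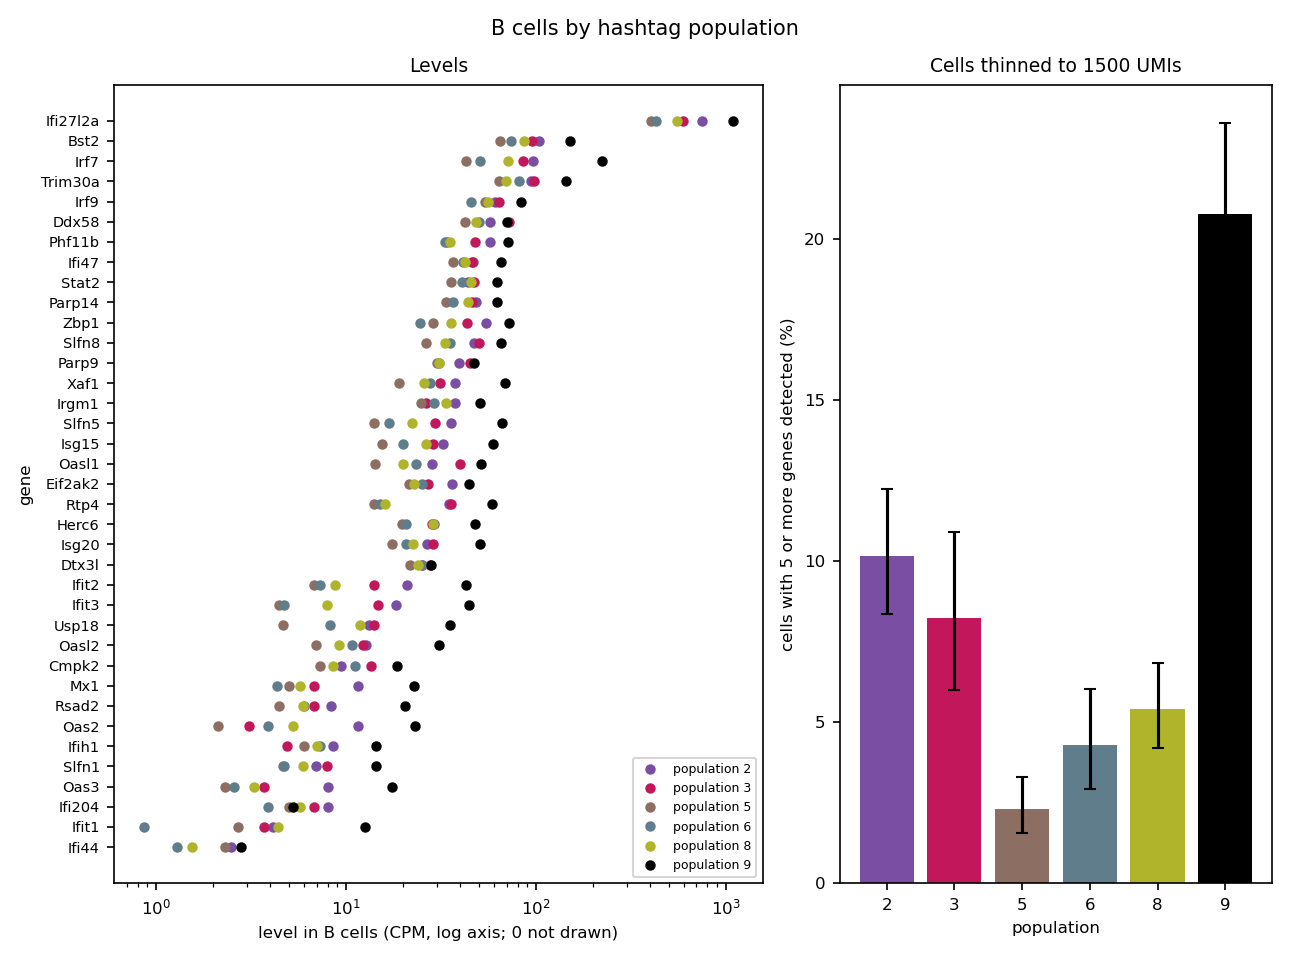
Left, level of each member in B cells (CPM, log axis) in populations 2, 3, 5, 6, 8 and 9. Right, share of B cells with at least 5 members detected after thinning to 1500 UMIs (%), with 95% exact binomial intervals. Population 9 lies to the right for nearly every gene, and its bar reaches 20.8% against 2.32% in population 5.

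Naive CD8 T cells showed the same populations at the ends. Their summed levels in populations 2, 3, 5, 6, 8 and 9 were 2078, 2294, 1751, 1792, 2262 and 3055 CPM. Of 30 members read, 14 had a 2-fold range, against 11.4% of all genes, and 24 were highest in population 9. Oas3 had the widest (6.02-fold), followed by Ifit3 (4.38-fold), Ifit1 (4.05-fold) and Ifit2 (3.53-fold). Without population 9 the count was 5. In naive CD4 T cells 8 of 26 members had a 2-fold range, against 16.1% of all genes, and 13 were highest in population 9, with summed levels of 2228 to 2958 CPM. The 6 populations in these B, CD8 and CD4 classes share 1 pool and its libraries, so the classes are not independent views of a population.

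To ask how the members were spread over cells, each cell was thinned to 1500 UMIs and the members with a UMI were counted. At least 5 members were found in 86.7% of monocytes, 68.3% of macrophages, 51.8% of activated CD8 T cells, 37.2% of Treg, 25% of NK cells, 22.5% of activated CD4 T cells, 19.5% of naive CD4 T cells, 17.4% of naive CD8 T cells and 8.06% of B cells (7.36 to 8.80). Without thinning the shares were 96.8% in monocytes and 26.2% in B cells, whose median depths were 8451 and 3054 UMIs. No class is known to lack these genes, so no background share can be set beside them. In activated CD8 T cells the share was 62.8% in population 1, 50.9% in population 4 and 22.3% in population 7. In macrophages it was 75.6%, 79.0% and 59.3%. In B cells it was 20.8% (18.1 to 23.6) in population 9 and 2.32% (1.57 to 3.30) in population 5, and in naive CD8 T cells 25.8% and 10.9%.

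B cells were uneven among themselves. After thinning 17.8% showed no member and the median was 2 members, while the most in any cell was 22. The 453 cells with at least 5 members, of which 181 came from population 9, were set beside the other 5167 for the genes that are not members. Of 10068 such genes read, 105 were at least 2-fold higher (1.04%) and 151 at least 2-fold lower. The 10 with the largest ratio were Ifit3b (41.2, a near copy of Ifit3), Phf11a (7.98, a relative of Phf11b), Mcpt2, Ifit1bl1, Gbp6, Csf1, Gm4955, Ly6c2, Pydc4 and Tgtp2 (4.90). Of the pathway genes, Oas1a was at 4.15 times and Daxx at 3.20, while Ifnar1 (0.941, interval 0.741 to 1.18), Gbp2 (1.14) and the early gene Jun (0.991) were near 1. Both sets of cells had like depth, with medians of 3032 and 3100 UMIs.

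The same split in the other classes gave some of the same genes and some of other kinds. In NK cells 92 genes were higher and 81 lower of 6712 read. In naive CD8 T cells 47 were higher and 46 lower of 8749, and in Treg 177 and 343 of 5901. NK cells with at least 5 members, 70 of 123 from population 4, had a median of 4394 UMIs, against 5334 in the rest. In NK cells 123 cells with at least 5 members were led by the chemokine Cxcl10 (18.2 times), Pydc3 (9.58) and the RNA helicase Dhx58 (6.21), with Oas1a at 4.39. In naive CD8 T cells the leading genes were Ifit3b (6.30), Ebf1 (5.56), Myo1e (5.54), Mef2c (4.32) and Dhx58 (3.89). Ebf1, Mef2c and Syk (3.13) are known from B cells, so B cell transcripts moved with the members there, and their part was not tested. In Treg the 110 cells, 29 of them from population 1 and 23 from population 4, were led by Lilrb4a (11.9), Phf11a (8.84), Plac8, Ccl3, Gbp6, Nkg7 and the effector gene Gzmb (5.38).

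The interferons themselves were nearly absent. The table lists 18 type I interferon genes, of which 3 had any UMI, 186 UMIs in 35 cells. Interferon beta (Ifnb1) gave 173 UMIs in 22 cells, 11 of them with a single UMI and 1 with 73. Macrophages held 10 of these cells and 152 of the UMIs, which is 0.334% of macrophages (0.160 to 0.614). They were 1 cell in population 1, 3 in population 4 and 6 in population 7. B cells held 3 cells with 1 UMI each. Ifnar1 was found in every class, from 60.0 CPM in B cells to 119 CPM in monocytes, and Ifnar2 from 55.5 CPM in naive CD4 T cells to 232 CPM in monocytes and 220 CPM in macrophages. The kinase Jak1 ran from 101 CPM in macrophages to 614 CPM in NK cells.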

How the data were processed

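The deposited table holds UMI counts, whole numbers per gene and cell with no normalization, which the authors produced with Cell Ranger (8.0.1) and the mm10-1.2.0 reference, per the series' design text. It merges 4 libraries of gene expression with 1 of hashtags, and counting of introns is not given in the sources. The stated filters (under 500 UMIs, under 200 genes, over 20% mitochondrial) were applied to the 21624 different barcodes and removed 93. A hashtag was assigned when its count reached 3 times the runner-up's (258 cells had none). Gates required several markers of 1 class and few of the others, and cells in several gates (30) or none (6590) were left out. Doublets were not removed, since Scrublet called 184 cells (0.855%), 22 of them in a gate. For a count of 0 the upper limit is 3 counts. No test was run, since the populations are unassigned samples and were not treated as replicates, and class ratios within a population are given as values. Named are, in each comparison, the 6 members of largest and 3 of smallest ratio and 10 fixed ones, and in each class the 5 of highest CPM. The values of 1 gene outside the members are not reported here. The ratio calls were checked on simulated counts. The members, lists and gates were chosen with earlier results of these data known. Python 3.11.15, numpy 2.4.6, scipy 1.17.1, pandas 2.3.3, scanpy 1.11.5 and matplotlib 3.10.9 were used. Alternatives changed the gates, hashtag rule, scaling, minimum UMIs, fold limit, thinning and populations.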

Additional observations from a re-analysis of the deposited data

Results flagged for a closer look

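Cells of 3 kinds enter none of the comparisons, and their member levels are given here as values. A sum over 37 expressed genes lies above the limit that a count of 0 allows in any such set of cells, so that limit singles out none of them. The 258 cells with no clear hashtag held 4763 CPM in sum (4624 to 4906), against a limit of 3.25 CPM. The 6590 tagged cells in no gate held 4095 CPM, against a limit of 0.110 CPM, and the 30 cells in several gates held 6448 CPM, against a limit of 8.82 CPM.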

How the results depend on the processing

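No called value changed direction under any alternative run. Of the counts and shares reported for comparisons and ranges, 398 values under an alternative stayed within 1.5 times, or within the counting interval for a share, and 88 moved. Summed levels moved in 86 values, among them the level without Ifi27l2a of every class, which was counted as moved by rule. Single-gene calls were lost in 64 values and gained in 170. With a limit of 1.5-fold in place of 2-fold, members called higher came to 32 for monocytes against macrophages, 15 for Treg and 4 for naive CD8 against naive CD4 T cells, 5 for B cells against naive CD4 T cells and 13 for macrophages against activated CD8 T cells. Those called lower came to 2 for activated against naive CD8 T cells, 4 for naive CD8 T cells, 14 for B cells, 18 for NK cells and 7 for macrophages against activated CD8 T cells, and ranges to 18 members in macrophages, 21 in monocytes, 16 in NK cells, 18 in naive CD4 and 23 in naive CD8 T cells. With at least 200 UMIs the counts were 0 lower for activated CD8 T cells, 5 higher for Treg, 0 higher for naive CD8 T cells and 2 higher for NK cells. With no minimum, 2 were lower for Treg and 1 for naive CD8 T cells. With median-of-ratios scaling, which differs from CPM by the all-gene median log2 (0.12 for activated CD8 T cells, -0.17 monocytes, 0.23 Treg, 0.12 B cells, -0.18 macrophages against activated CD8 T cells), 2 were lower for activated CD8 T cells, 2 higher for naive CD8 T cells and 1 lower for macrophages against activated CD8 T cells. Stricter gates gave 2 lower for activated CD8 T cells and ranges in 1 member for macrophages and 0 for monocytes. Looser gates gave 0 lower for activated CD8 T cells and for Treg, 2 higher and 1 lower for naive CD8 T cells, 5 lower for NK cells and 11 higher for macrophages against activated CD8 T cells, ranges of 1 in macrophages, 0 in monocytes, 16 in NK cells and 5 in naive CD4 T cells, and 41.2% of activated CD8 T cells with several members. The cause was not tested. Looser gates held fewer naive CD4 T cells (679, against 972 as reported), because cells that then passed several gates were left out. Comparisons with that class thus rest on a smaller class under looser gates. The median ratio over shared populations gave 4 higher and 4 lower for Treg, 2 lower for naive CD8 T cells, and 14 higher and 1 lower for macrophages against activated CD8 T cells. A hashtag ratio of 5 gave 2 higher for naive CD8 T cells, and at least 50 cells per population left 1 monocyte member. With 4 or more members, or thinning to 2500 UMIs, shares were 14.8% and 17.0% in B cells, 29.5% and 36.6% in naive CD8 T cells, 61.5% and 67.4% in activated CD8 T cells, and 79.6% and 86.6% in macrophages. Leaving out 1 population at a time, the members higher and lower ranged from 17 to 27 and 0 to 2 (activated CD8 T cells), 15 to 22 and 0 to 0 (monocytes), 3 to 11 and 0 to 1 (Treg), 1 to 2 and 0 to 2 (naive CD8 T cells), 2 to 3 and 7 to 10 (B cells), 4 to 4 and 3 to 13 (NK cells) and 6 to 15 and 1 to 5 (macrophages against activated CD8 T cells). Ranges held 0 to 2 members in macrophages, 1 to 5 in monocytes, 10 to 29 in activated CD8 T cells, 0 to 6 in NK cells, 13 to 18 in Treg, 10 to 29 in B cells, 6 to 9 in naive CD4 and 5 to 14 in naive CD8 T cells. Shares ran from 5.73% to 9.77% in B cells, 15.1% to 18.9% in naive CD8 T cells, 40.1% to 56.1% in activated CD8 T cells and 63.6% to 77.2% in macrophages. Counted by promoter, 17 of the members' 34 held the response element, against 3.44% of all promoters. Classes that share populations can be paired within them, but such pairs are compared by value only. A test over the pairs was not run, because the populations are unassigned and were not treated as replicates. Some populations gave 24 to 45 Treg or monocytes, which limits the precision of their values.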
